A study of Mus musculus with 24 samples.

Results

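The glucocorticoid-induced genes described here are 9 genes that cells raise when the stress hormone receptor is active: Fkbp5, Tsc22d3, Zbtb16, Klf9, Dusp1, Errfi1, Sgk1, Tat and Tdo2. Each was taken by its gene name from the per-gene tables, all 9 were found among 43629 listed gene identifiers, and all 9 were among the 12261 genes that averaged at least 1 TPM (transcript abundance scaled for length and depth) and were tested. The RNA came from livers of old mice of about 19 months and young mice of about 4 months, all wild-type animals of the inbred strain C57BL/6, with no transgene or treatment named at either age. Livers were taken every 4 h from ZT2 to ZT22, where zeitgeber time (ZT) counts hours from lights on, with 2 libraries per age and time, 12 libraries per age and 24 in all. Collection spanned 2 days per the series' design text, and the labels give neither the day of a replicate, nor the sex, nor the light schedule. Nor do they state that replicates came from different animals, so a p here speaks only of the spread among these libraries, which may be technical.

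In the liver, corticosterone binds the glucocorticoid receptor, which is held by heat shock proteins and immunophilins until the hormone arrives, then enters the nucleus and acts on DNA at response elements. Circulating corticosterone in nocturnal rodents is highest around the start of the active, dark phase. The receptor's targets include brakes on the receptor and on inflammation, transcription factors, brakes on growth factor signalling, and enzymes that break down amino acids for glucose production. Several of these genes also answer to other inputs, such as fasting hormones, growth factors and the circadian clock.

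Depth, read from the largest ratio of deposited coverage to deposited FPKM, equalled 8.70 to 12.3 M reads of 50 bases in old libraries and 9.68 to 13.7 M in young libraries. The 6 hepatocyte markers summed to 77658 to 107635 TPM in old liver and 73260 to 104681 TPM in young liver, and none of them was at 0, so the tissue label held. Some libraries stood apart. Old ZT14 replicate 1 had 3.42% of its TPM in mitochondrial genes (old ZT14 replicate 2 had 8.74%), against 10.7% to 17.1% in the other 22 libraries. Young ZT18 replicate 2 held 3054 TPM of 6 pancreatic acinar markers, against at most 11.1 TPM elsewhere. Old ZT10 replicates 1 and 2 held 27223 and 10269 TPM of 8 acute phase genes, and old ZT2 replicate 1 and old ZT6 replicates 1 and 2 held 12334, 9995 and 9069 TPM, against 3171 to 6046 TPM in young liver. In whole tissue, fewer cells of a type and less RNA per cell cannot be told apart.

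Promoter sequence was taken from RefSeq (GRCm38.p6) as 250 bases before to 50 bases after each annotated gene start, with the start base counted as 0, and 8 of the 9 genes had such windows, 16 in all, the exception being Zbtb16. Exact letters were searched on both strands, and 9 of the 16 windows held at least 1 match. The full glucocorticoid response element, the arms AGAACA and TGTTCT with any 3 bases between them, was found in 1 window of Sgk1, as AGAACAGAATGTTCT, and in 0.00913% of all 32851 promoter windows (3 windows). A single arm of that element, TGTTCT, was found in 4 windows of Tsc22d3 and Sgk1, and in 19% of all windows (21.3% of genes). The cyclic AMP response element TGACGTCA was found in 1 window each of Dusp1 and Errfi1, and in 1.79% of all windows (2.03% of genes). The E-box CACGTG, the element bound by clock factors, was found in 1 window each of Fkbp5, Dusp1 and Sgk1, and in 7.15% of all windows (8.09% of genes). The TATA box letters TATAAA were found in 4 windows of Sgk1, Tdo2 and Errfi1, and in 13.6% of all windows (15.7% of genes). Sgk1 had 6 of the 16 windows, more than any other of the 8 genes. These 4 windows are shown because they hold the full element, an E-box or a cyclic AMP element, with matches in capitals and read 5′ to 3′ on the gene's strand.
Sgk1, chr10:21993640-21993939, plus strand: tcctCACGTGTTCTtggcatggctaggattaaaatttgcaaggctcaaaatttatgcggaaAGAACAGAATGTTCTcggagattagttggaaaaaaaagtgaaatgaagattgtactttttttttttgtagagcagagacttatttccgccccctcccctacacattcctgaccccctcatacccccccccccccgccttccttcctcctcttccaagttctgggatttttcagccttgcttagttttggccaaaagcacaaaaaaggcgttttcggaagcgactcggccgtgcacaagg
Fkbp5, chr17:28486100-28486399, minus strand: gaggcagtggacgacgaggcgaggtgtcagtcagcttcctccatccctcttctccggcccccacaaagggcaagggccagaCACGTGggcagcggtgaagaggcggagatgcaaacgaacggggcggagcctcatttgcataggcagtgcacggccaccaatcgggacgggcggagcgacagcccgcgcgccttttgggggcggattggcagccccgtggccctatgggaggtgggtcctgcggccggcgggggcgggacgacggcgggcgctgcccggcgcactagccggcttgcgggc
Dusp1, chr17:26508423-26508722, minus strand: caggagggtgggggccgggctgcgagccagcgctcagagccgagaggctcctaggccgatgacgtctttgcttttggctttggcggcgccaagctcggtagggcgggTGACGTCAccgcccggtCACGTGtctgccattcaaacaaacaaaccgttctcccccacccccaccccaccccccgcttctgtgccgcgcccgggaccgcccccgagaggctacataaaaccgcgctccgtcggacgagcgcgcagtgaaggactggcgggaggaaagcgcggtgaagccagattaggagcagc
Errfi1, chr4:150854820-150855119, plus strand: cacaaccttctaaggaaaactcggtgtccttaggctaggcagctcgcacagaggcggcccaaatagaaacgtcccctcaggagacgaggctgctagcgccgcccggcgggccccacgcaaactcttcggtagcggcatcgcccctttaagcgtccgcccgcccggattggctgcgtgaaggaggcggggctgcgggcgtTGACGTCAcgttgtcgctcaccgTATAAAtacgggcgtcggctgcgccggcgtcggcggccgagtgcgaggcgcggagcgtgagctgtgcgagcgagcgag
In Sgk1 the full element ran from base -189 to base -175, and an E-box from -246 to -241 overlapped a single arm from -242 to -237. In Fkbp5 the E-box ran from -169 to -164. In Dusp1 the cyclic AMP element ran from -143 to -136 and the E-box from -126 to -121. In Errfi1 the cyclic AMP element ran from -51 to -44 and the TATA box from -28 to -23. A match says that the letters are in the window and does not show binding, and a gene without a match may hold elements outside it.

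Values below are TPM after scaling each library by a median-of-ratios factor, and each pair gives replicate 1, then replicate 2. Averaged over all libraries, the order of the levels was Tdo2 at 946 TPM, Tat at 517 TPM, Errfi1 at 289.8 TPM, Tsc22d3 at 55.7 TPM, Klf9 at 28.8 TPM, Dusp1 at 24.3 TPM, Fkbp5 at 17.7 TPM, Sgk1 at 15.4 TPM and Zbtb16 at 2.98 TPM. Library ranges overlapped for Tdo2 with Tat, Tat with Errfi1, Tsc22d3 with Klf9, among Klf9, Dusp1, Fkbp5 and Sgk1, and for Sgk1 with Zbtb16, so the order of those neighbours is not settled by these libraries. Errfi1 and Tsc22d3 did not overlap. Gene positions below are those of the deposited tables (GRCm38). TPM is scaled for transcript length, so these levels can be compared between genes.

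Rhythms of 24 h passed the threshold (limma, Benjamini-Hochberg adjusted p under 0.05 over all genes tested) for 3 of the 9 genes in old liver, Fkbp5, Tsc22d3 and Zbtb16, where 8.96% of all genes did. In young liver 3 passed, Fkbp5, Tsc22d3 and Klf9, where 10.7% of all genes did. On the mean of both ages 5 passed, these 4 and Errfi1, where 23.9% of all genes did. The median amplitude, fitted peak minus fitted trough in log2, was 0.77 in old liver and 0.83 in young liver over the 9 genes, beside 0.39 in old and 0.44 in young over all genes tested. Any difference among the 6 times, with no shape assumed, gave 4 of 9 genes in old liver (5.65% of all genes) and 3 of 9 in young liver (6.86% of all genes).

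**Figure D1:**
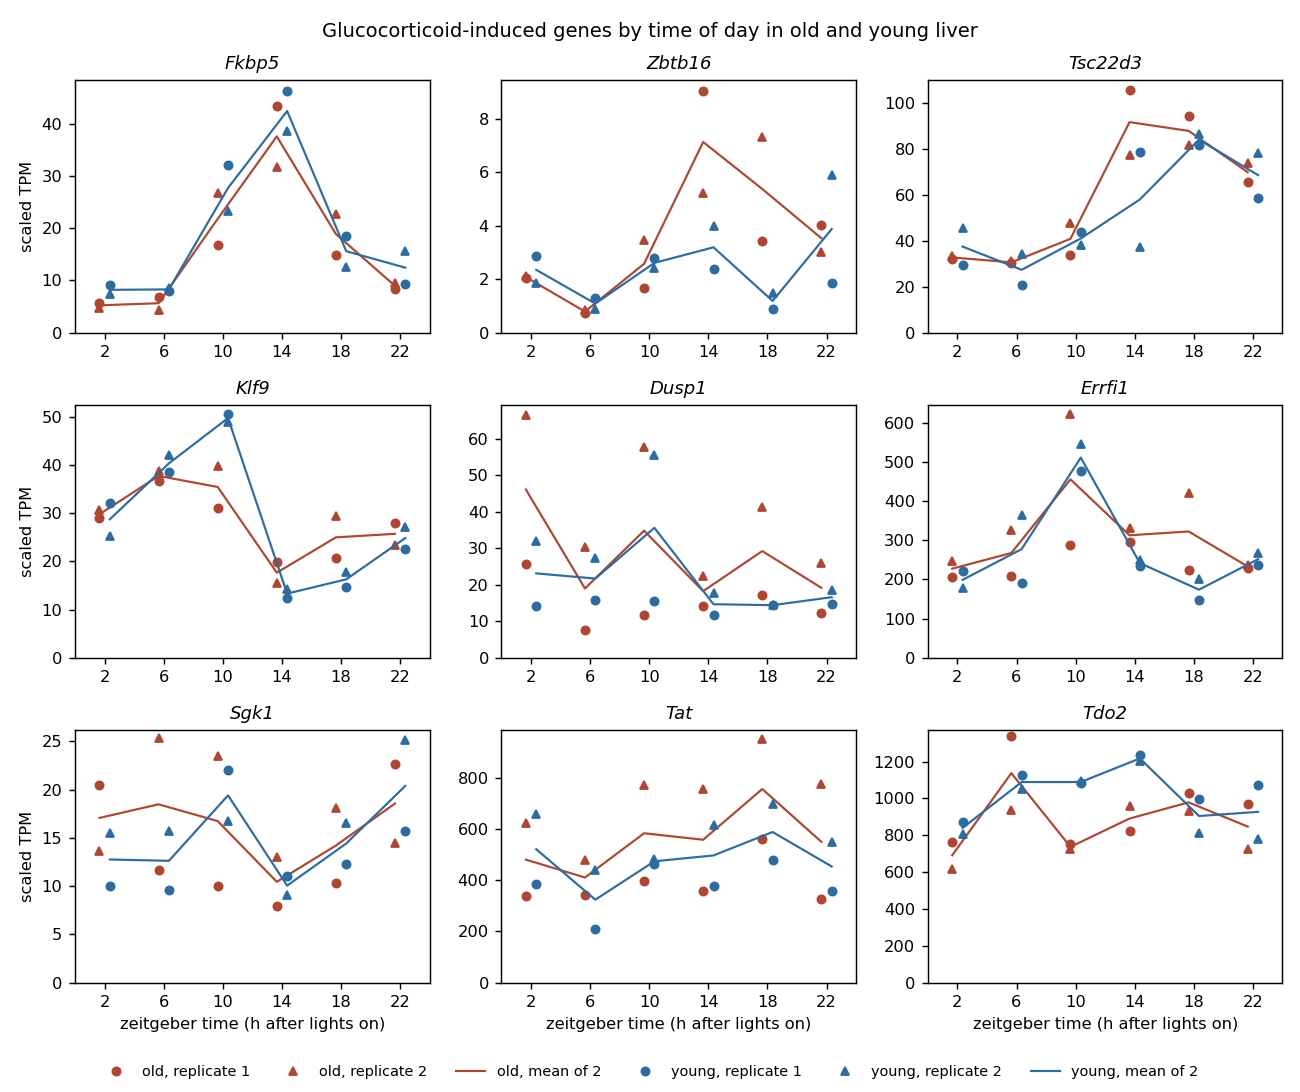
Scaled TPM by zeitgeber time (h) for the 9 genes, with points for the 2 libraries and lines for the mean of each age, old in red and young in blue. At both ages the Fkbp5 mean is highest and the Klf9 mean lowest at ZT14.

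Fkbp5 (ENSMUSG00000024222, chr17:28399095-28517524, minus strand) encodes FKBP51, an immunophilin co-chaperone that the hormone induces and that lowers the receptor's affinity for it. In old liver it had 5.63 and 4.79 TPM at ZT2, 6.85 and 4.38 TPM at ZT6, 16.8 and 26.7 TPM at ZT10, 43.4 and 31.7 TPM at ZT14, 14.9 and 22.8 TPM at ZT18, and 8.37 and 9.51 TPM at ZT22. In young liver it had 9.02 and 7.33 TPM at ZT2, 8.01 and 8.50 TPM at ZT6, 32.1 and 23.3 TPM at ZT10, 46.3 and 38.5 TPM at ZT14, 18.5 and 12.6 TPM at ZT18, and 9.28 and 15.6 TPM at ZT22. Both ages had their highest group mean at ZT14 and their lowest at ZT2, which were 7.21-fold apart in old liver and 5.19-fold apart in young liver. The fitted amplitude was 2.78 (SE 0.32, adjusted p = 2.67e-05 by limma) in old liver and 2.21 (SE 0.32, adjusted p = 0.000347) in young liver, with peaks at ZT14.4 in old and ZT13.7 in young. Old liver was lower at 5 of 6 times, with ZT18 the exception, and its difference over the day was log2 -0.31 (SE 0.13, unadjusted p = 0.0277, adjusted p = 0.331 by limma), which did not pass.

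Tsc22d3 (ENSMUSG00000031431, chrX:140539528-140600659, minus strand) encodes GILZ, a leucine zipper protein that carries much of the hormone's anti-inflammatory action. Old livers held 31.8 and 33.5 TPM at ZT2, 30.1 and 30.9 TPM at ZT6, 33.8 and 47.7 TPM at ZT10, 106 and 77.4 TPM at ZT14, 94.0 and 81.5 TPM at ZT18, and 65.7 and 73.8 TPM at ZT22. Young livers held 29.3 and 45.5 TPM at ZT2, 20.6 and 34.0 TPM at ZT6, 43.9 and 38.0 TPM at ZT10, 78.7 and 37.1 TPM at ZT14, 81.7 and 86.2 TPM at ZT18, and 58.7 and 78.3 TPM at ZT22. The level was high at both ages at ZT18 and ZT22, and at ZT14 young replicate 2 was the library near the values of ZT2 to ZT10. Peak and trough differed by 1.79 on the log2 scale in old liver (SE 0.24, adjusted p = 0.000179 by limma) and by 1.53 in young liver (SE 0.24, adjusted p = 0.000887). The fitted peaks were ZT17.2 in old liver and ZT18.2 in young liver. At ZT14 the ages overlapped through young replicate 1, with a difference of log2 0.74 (SE 0.32, unadjusted p = 0.0351, adjusted p = 0.59 by limma) that did not pass.

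Zbtb16 (ENSMUSG00000066687, chr9:48654311-48835945, minus strand), the least abundant of the 9, encodes PLZF, a zinc finger transcription repressor. The old libraries gave 2.05 and 2.10 TPM at ZT2, 0.715 and 0.854 TPM at ZT6, 1.67 and 3.48 TPM at ZT10, 9.04 and 5.22 TPM at ZT14, 3.43 and 7.31 TPM at ZT18, and 4.03 and 3.03 TPM at ZT22. The young libraries gave 2.85 and 1.85 TPM at ZT2, 1.30 and 0.866 TPM at ZT6, 2.79 and 2.42 TPM at ZT10, 2.38 and 3.99 TPM at ZT14, 0.867 and 1.50 TPM at ZT18, and 1.87 and 5.88 TPM at ZT22. Old and young values did not overlap at ZT14 and ZT18, where old was higher, or at ZT6, where old was lower, and they overlapped at ZT2, ZT10 and ZT22. At ZT6 the nearest values were close, 0.854 TPM in old and 0.866 TPM in young. With 2 libraries per age such a separation can arise without a difference, and it was not counted over all genes. It also occurred at some times for Fkbp5, Klf9, Dusp1, Errfi1 and Tdo2. No single time passed the threshold by limma for Zbtb16. The amplitude was 2.15 (SE 0.48, adjusted p = 0.0149 by limma) in old liver and 0.28 (SE 0.48, adjusted p = 0.912) in young liver. The difference in rhythm between the ages, 1.87 in amplitude, had an unadjusted p of 0.0353 and an adjusted p of 0.9999 by limma, so a difference was not shown. Without old ZT6 replicate 1 or replicate 2, the old rhythm had an adjusted p of 0.0586 or 0.0525 by limma and no longer passed. On the mean of both ages the rhythm had an adjusted p of 0.0308 by limma, and leaving out any 1 of 7 single libraries raised it to 0.0542 to 0.0795.

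Klf9 (ENSMUSG00000033863, chr19:23141226-23166911, plus strand), a Krüppel-like transcription factor that the hormone induces and that is known as a repressor, had fitted peaks opposite in phase to those of Tsc22d3. In old liver the values were 29.0 and 30.7 TPM at ZT2, 36.7 and 38.9 TPM at ZT6, 31.1 and 39.9 TPM at ZT10, 19.8 and 15.5 TPM at ZT14, 20.6 and 29.4 TPM at ZT18, and 28.1 and 23.4 TPM at ZT22. In young liver the values were 32.3 and 25.3 TPM at ZT2, 38.7 and 42.2 TPM at ZT6, 50.7 and 49.0 TPM at ZT10, 12.3 and 14.3 TPM at ZT14, 14.8 and 17.8 TPM at ZT18, and 22.6 and 27.2 TPM at ZT22. At ZT14 both ages were at their lowest group mean, which is where Fkbp5 was highest. Fitted peaks were ZT5.19 in old liver and ZT5.88 in young liver, with amplitudes of 0.82 (SE 0.29, adjusted p = 0.176 by limma) in old and 1.55 (SE 0.29, adjusted p = 0.00401) in young. The young fit placed the peak before the highest group mean, which was at ZT10 (49.9 TPM, against 40.4 TPM at ZT6). The old profile was narrower between its extremes: its highest group mean was 2.14 times its lowest, against 3.75 times in young liver. The difference in rhythm between the ages did not pass, and its unadjusted p was not under 0.05 either (limma). With no shape assumed, the 6 times did differ in old liver (adjusted p = 0.0232 by limma). Klf9 was lower in old liver at ZT10 (log2 -0.49, SE 0.20) and higher at ZT18 (log2 0.59, SE 0.20), with unadjusted p of 0.0258 and 0.00995 and adjusted p of 0.498 and 0.897 by limma, and neither passed.

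**Figure D2:**
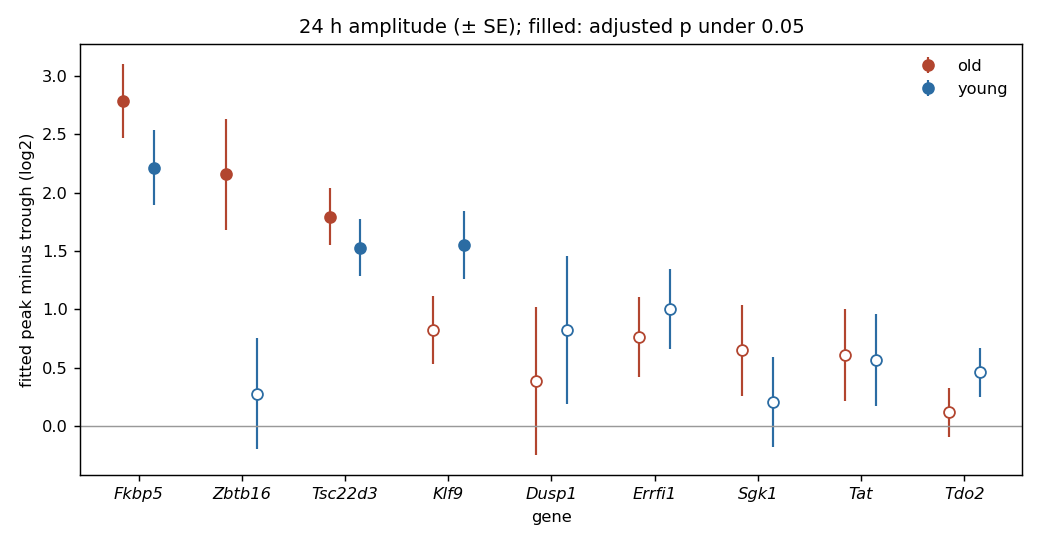
Fitted peak minus trough (log2) in old (red) and young (blue) liver for the 9 genes, with bars for ± 1 SE and filled points for an adjusted p under 0.05 by limma. Fkbp5 and Tsc22d3 are filled at both ages, Zbtb16 in old alone and Klf9 in young alone, and no difference between ages passed the threshold.

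Dusp1 (ENSMUSG00000024190, chr17:26505590-26508519, minus strand) encodes a phosphatase that switches off MAP kinases. In old liver it had 25.7 and 66.3 TPM at ZT2, 7.47 and 30.4 TPM at ZT6, 11.7 and 57.8 TPM at ZT10, 14.1 and 22.3 TPM at ZT14, 17.0 and 41.3 TPM at ZT18, and 12.2 and 26.0 TPM at ZT22. In young liver it had 14.2 and 31.9 TPM at ZT2, 15.9 and 27.4 TPM at ZT6, 15.6 and 55.5 TPM at ZT10, 11.7 and 17.6 TPM at ZT14, 14.3 and 14.4 TPM at ZT18, and 14.7 and 18.4 TPM at ZT22. Replicate 2 was above replicate 1 in 12 of 12 age and time groups, which held for 1.39% of all genes, with ratios from 1.003 to 4.93 and a median of 2.19. Neither the amplitude, 0.38 in old liver and 0.83 in young liver (SE 0.63 each, adjusted p = 0.934 and 0.648 by limma), nor the age difference, log2 0.27 (SE 0.33, adjusted p = 0.867), passed. The sum of 12 immediate early genes, the class of early responders to which Dusp1 belongs, was 51.2 to 580 TPM in old liver and 46.6 to 160 TPM in young liver.

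Errfi1 (ENSMUSG00000028967, chr4:150853919-150868892, plus strand) encodes MIG6, an inhibitor of the epidermal growth factor receptor. Old livers held 207 and 248 TPM at ZT2, 209 and 326 TPM at ZT6, 289 and 624 TPM at ZT10, 296 and 331 TPM at ZT14, 224 and 422 TPM at ZT18, and 229.9 and 236 TPM at ZT22. Young livers held 221 and 177 TPM at ZT2, 190.4 and 365 TPM at ZT6, 478 and 546 TPM at ZT10, 235 and 249 TPM at ZT14, 147 and 201 TPM at ZT18, and 237 and 267 TPM at ZT22. The highest group mean fell at ZT10 at both ages, 2.01 times the lowest in old liver and 2.95 times in young liver. The rhythm passed only on the mean of both ages (amplitude 0.82, fitted peak ZT10.5, adjusted p = 0.0423 by limma), and with ZT10 left out the adjusted p was 0.614. Leaving out any 1 of 15 single libraries also ended the call, with an adjusted p of 0.0501 to 0.113 by limma. Replicate 2 was above replicate 1 in 11 of 12 groups, with a median ratio of 1.17, and at least 11 groups did so for 8.49% of all genes.

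Sgk1 (ENSMUSG00000019970, chr10:21882184-21999903, plus strand) encodes a kinase that controls ion channels and nutrient carriers. The old libraries gave 20.5 and 13.6 TPM at ZT2, 11.6 and 25.3 TPM at ZT6, 10.001 and 23.46 TPM at ZT10, 7.92 and 13.0 TPM at ZT14, 10.3 and 18.1 TPM at ZT18, and 22.6 and 14.5 TPM at ZT22. The young libraries gave 9.96 and 15.5 TPM at ZT2, 9.56 and 15.7 TPM at ZT6, 22.02 and 16.8 TPM at ZT10, 11.04 and 9.05 TPM at ZT14, 12.3 and 16.5 TPM at ZT18, and 15.7 and 25.1 TPM at ZT22. Both ages had their lowest group mean at ZT14 and their highest at ZT22, but the libraries of a group were up to 2.35-fold apart. Sgk1 passed no test: the amplitude was 0.65 in old liver and 0.21 in young liver (SE 0.39 each, adjusted p = 0.557 and 0.927 by limma), and the age difference was log2 0.07 (SE 0.19, adjusted p = 0.954).

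Tat (ENSMUSG00000001670, chr8:109990437-109999803, plus strand) encodes tyrosine aminotransferase, a classical hormone-induced liver enzyme that starts tyrosine breakdown. In old liver the values were 339 and 623 TPM at ZT2, 342 and 479.9 TPM at ZT6, 397 and 772 TPM at ZT10, 359 and 759 TPM at ZT14, 563 and 952 TPM at ZT18, and 326 and 776 TPM at ZT22. In young liver the values were 384 and 659.5 TPM at ZT2, 209 and 439 TPM at ZT6, 466 and 484 TPM at ZT10, 378 and 618 TPM at ZT14, 481 and 697 TPM at ZT18, and 359 and 550.2 TPM at ZT22. Like Dusp1, Tat was higher in replicate 2 in 12 of 12 groups, with a median ratio of 1.70 and a range of 1.04 to 2.38. Group means were highest at ZT18 and lowest at ZT6 at both ages, 1.84-fold apart in old and 1.82-fold in young, yet the amplitude of 0.61 in old liver and 0.57 in young liver (SE 0.39 each) did not pass (adjusted p = 0.609 and 0.595 by limma). On the mean of both ages the rhythm did not pass either. With the replicate number in the model, as an alternative, it passed there (amplitude 0.59, adjusted p = 0.0196 by limma). In the main model the age difference was log2 0.19 (SE 0.22, adjusted p = 0.852 by limma).

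Tdo2 (ENSMUSG00000028011, chr3:81957090-81976202, minus strand) encodes tryptophan 2,3-dioxygenase, the entry enzyme of tryptophan breakdown, and had the highest mean of the 9. In old liver it had 766 and 617 TPM at ZT2, 1337 and 938 TPM at ZT6, 749.9 and 724 TPM at ZT10, 824 and 957 TPM at ZT14, 1027 and 930.4 TPM at ZT18, and 971 and 723 TPM at ZT22. In young liver it had 872 and 808 TPM at ZT2, 1129 and 1049 TPM at ZT6, 1085 and 1093 TPM at ZT10, 1233 and 1201 TPM at ZT14, 998 and 811 TPM at ZT18, and 1073 and 782 TPM at ZT22. Old and young values did not overlap at ZT2, ZT10 and ZT14, where old was lower, but no single time passed the threshold by limma. With 2 libraries per age such a separation can arise without a difference, and it was not counted over all genes. Averaged over the day, Tdo2 was 880.4 ± 191 TPM in old liver and 1011 ± 157 TPM in young liver (SD over times and replicates, n = 12 each), a difference of log2 -0.21 (SE 0.09, unadjusted p = 0.0249, adjusted p = 0.317 by limma) that did not pass. Its rhythm did not pass at either age (amplitude 0.12 in old and 0.46 in young, SE 0.21 each, adjusted p = 0.942 and 0.322 by limma).

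**Figure D3:**
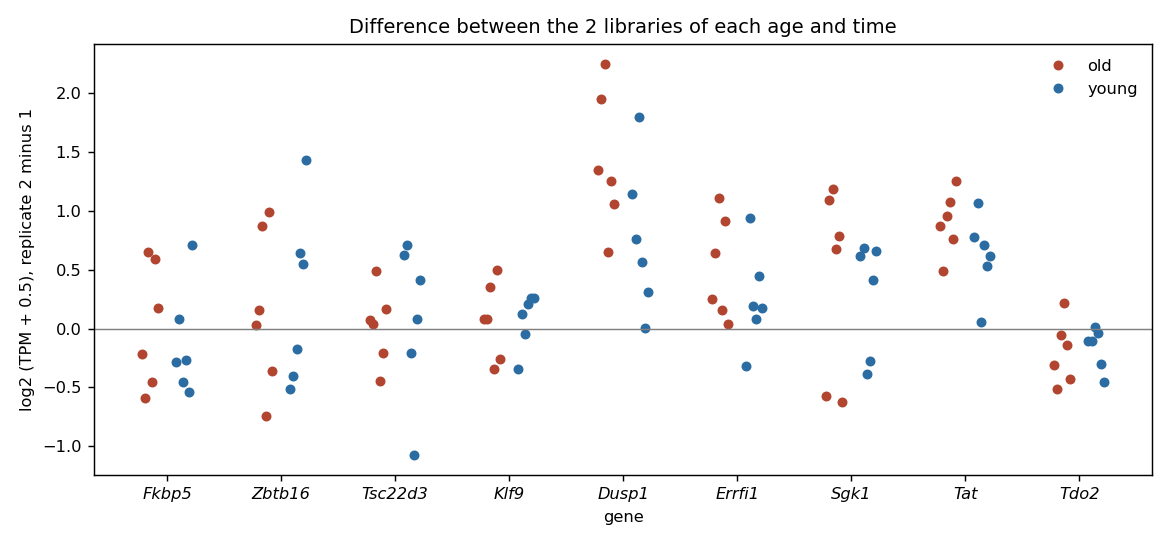
Replicate 2 minus replicate 1 in log2(scaled TPM + 0.5) for each age and time, old in red and young in blue, for the 9 genes. All 12 points lie at or above 0 for Dusp1 and Tat and 11 of 12 for Errfi1, but 2 of 12 for Tdo2, while Fkbp5, Zbtb16, Tsc22d3 and Klf9 scatter on both sides.

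Between the ages, 0 of the 9 genes passed the threshold over the day (limma), where 1.64% of all genes did, 140 of them higher (1.14%) and 61 lower (0.498%) in old liver. With the deposited TPM unscaled that split was 225 higher and 38 lower, and the median of all genes moved to log2 0.09. At an unadjusted p under 0.05 there were 2 genes, Fkbp5 and Tdo2, both lower in old, where 11.6% of all genes did so in either direction. The fitted age difference was above 0 for 7 of the 9 genes and below 0 for Fkbp5 and Tdo2, with a median of log2 0.14 beside -0.01 over all genes tested.

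At single times 0 of 9 passed by limma at any of the 6 times. Of all genes, 0% passed at ZT2 and ZT6. At ZT10, 0.449% were higher and 0.0816% lower, at ZT14 0.0326% were higher and 0.00816% lower, at ZT18 0.0163% were higher and 0.00816% lower, and at ZT22 0.00816% were higher and 0% lower. At an unadjusted p under 0.05 the genes were Klf9 and Tdo2, lower in old at ZT10, Tsc22d3 and Zbtb16 higher and Tdo2 lower at ZT14, and Zbtb16, Klf9 and Errfi1 higher at ZT18, with none at ZT2, ZT6 and ZT22. At that level, 3.3% of all genes were lower at ZT10, 3.4% higher and 4.46% lower at ZT14, and 2.45% higher at ZT18. The part of the high acute phase RNA of old ZT10 in the ZT10 values was not tested. Young ZT18 replicate 2 carries pancreatic RNA and old ZT14 replicate 1 little mitochondrial RNA. Without those 2 libraries the ZT18 differences were log2 2.02 (SE 0.56) for Zbtb16, 0.72 (SE 0.24) for Klf9 and 1.06 (SE 0.47) for Errfi1. The ZT14 differences were then 0.51 (SE 0.41) for Tsc22d3, 0.67 (SE 0.56) for Zbtb16 and -0.35 (SE 0.25) for Tdo2. Each of these rests on 1 library in the reduced arm, whose spread is assumed to match the other groups.

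The age difference varied over the times for 0 of 9 genes by limma, where 0.0163% of all genes passed (2 genes), and for 2 genes, Zbtb16 and Klf9, at an unadjusted p under 0.05, where 3.6% of all genes did. The rhythm differed between the ages for 0 of 9 genes by limma, where 0% of all genes passed, and for Zbtb16 alone at an unadjusted p under 0.05, where 3.5% of all genes did.

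**Figure D4:**
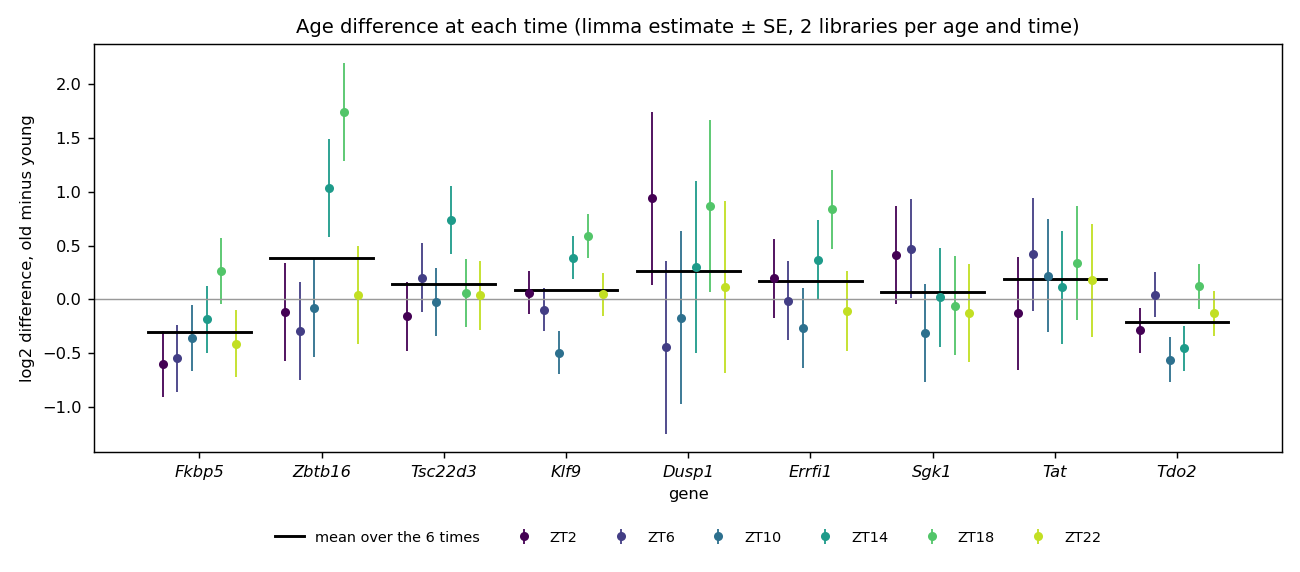
Old minus young at each zeitgeber time (log2) for the 9 genes, from the limma fit of the 12 groups. Zbtb16 at ZT18 has the largest value, 1.75, and no value passed the adjusted threshold.

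Over the 24 libraries, 6 of 36 pairs of the 9 genes had a Pearson r over 0.5. These were Fkbp5 with Zbtb16 (0.57), Tsc22d3 with Zbtb16 (0.55), Tat with Dusp1 (0.55), Dusp1 with Errfi1 (0.53), Klf9 with Errfi1 (0.52) and Fkbp5 with Tsc22d3 (0.51). The lowest r was -0.63, for Tsc22d3 with Klf9. Once group means were removed, 7 pairs were over 0.5, led by Zbtb16 with Klf9 (0.87) and Tat with Dusp1 (0.77). Once the mean offset between replicate numbers was removed as well, Tat with Dusp1 had an r of -0.144, Dusp1 with Errfi1 had 0.349 in place of 0.72, and Zbtb16 with Klf9 had 0.861. The libraries share their depth and RNA composition, so these are descriptions.

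Genes among the 3 most like each of the 9 in their 24-library profile were found by Pearson r of log2(scaled TPM + 0.5) among named genes of at least 5 TPM. For Fkbp5 they were Nampt (0.93), Tmem57 (0.91) and Tsku (0.90), and for Tsc22d3 they included Fgf1 (0.88) and Ces1d (0.87). Klf9 was closest to Klhl24 (0.93), Fbxl20 (0.93) and Hykk (0.91). Zbtb16 was closest to Trp53inp2 (0.79), Ccnt1 (0.78) and Nucks1 (0.77). Dusp1 was closest to Fos (0.87), Jun (0.87) and Dusp6 (0.83), and those of Errfi1 included Srsf4 (0.86) and Bach1 (0.85). Those of Tat included Etnk1 (0.86). The likeness was weaker for Sgk1, whose closest gene was Fam208a (0.72), and for Tdo2, whose 3 included Tmem128 (0.67) and Cox4i1 (0.67).

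The receptor gene itself, Nr3c1, averaged 30.0 ± 4.46 TPM in old liver and 31.2 ± 5.88 TPM in young liver (SD, n = 12 each), a difference of log2 -0.05 (SE 0.12, adjusted p = 0.938 by limma). Hsd11b1, which regenerates active corticosterone inside the liver, averaged 663 ± 113 TPM in old liver and 653 ± 87.7 TPM in young liver (adjusted p = 0.972 by limma). Of 22 tested genes for the receptor, its chaperones and the hormone's supply, 0 were higher and 1 was lower in old liver by limma. Of all genes, 1.14% were higher and 0.498% lower. At an unadjusted p under 0.05, 1 of the 22 was higher and 3 were lower, beside 11.6% of all genes in either direction. The gene past the adjusted threshold was Srd5a1, a steroid 5-alpha-reductase that inactivates the hormone, at 46.9 ± 9.79 TPM in old liver and 56.1 ± 5.38 TPM in young liver (log2 -0.28, SE 0.06, adjusted p = 0.0209 by limma). Its differences were log2 -0.10 at ZT2, -0.42 at ZT6, -0.84 at ZT10, -0.29 at ZT14, -0.03 at ZT18 and 0.00 at ZT22 (SE 0.14 each), of which ZT10, where acute phase RNA was high in old liver, passed on its own (adjusted p = 0.0205 by limma). In the same list 14 of 22 were rhythmic on the mean of both ages, beside 23.9% of all genes. Serpina6, the corticosteroid-binding globulin of blood, had amplitudes of 1.42 in old liver and 1.57 in young liver with a peak at ZT12.4, and the receptor chaperones Fkbp4 and Hsp90aa1 peaked at ZT19.1 and ZT18.3.

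A second list of 20 other tested glucocorticoid-induced genes had 0 genes past the age threshold in either direction by limma, where 1.64% of all genes passed. At an unadjusted p under 0.05, 6 were higher and 0 lower in old, beside 11.6% of all genes in either direction. The median age difference of this list was log2 0.19. Of its genes, 14 were rhythmic in old, 11 in young and 19 on the mean of both ages, with Bcl6 the exception. The shares over all genes were 8.96%, 10.7% and 23.9%. Its median amplitude was 1.56 beside 0.36 over all genes tested. The 4 with the smallest p were Per2, a clock gene with amplitudes of 3.10 in old and 3.48 in young and a peak at ZT15.2, Cdkn1a, a cell cycle inhibitor (2.85 in old, 3.96 in young, ZT21.5), Pdk4, a brake on pyruvate oxidation (3.23 in old, 2.93 in young, ZT22.6), and Ddit4, an inhibitor of mTOR signalling (1.28 in old, 1.98 in young, ZT19.7). Called peaks in this list ran from ZT2.86 to ZT22.6, and those of the 5 rhythmic genes of the 9 from ZT5.64 to ZT17.7.

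**Figure D5:**
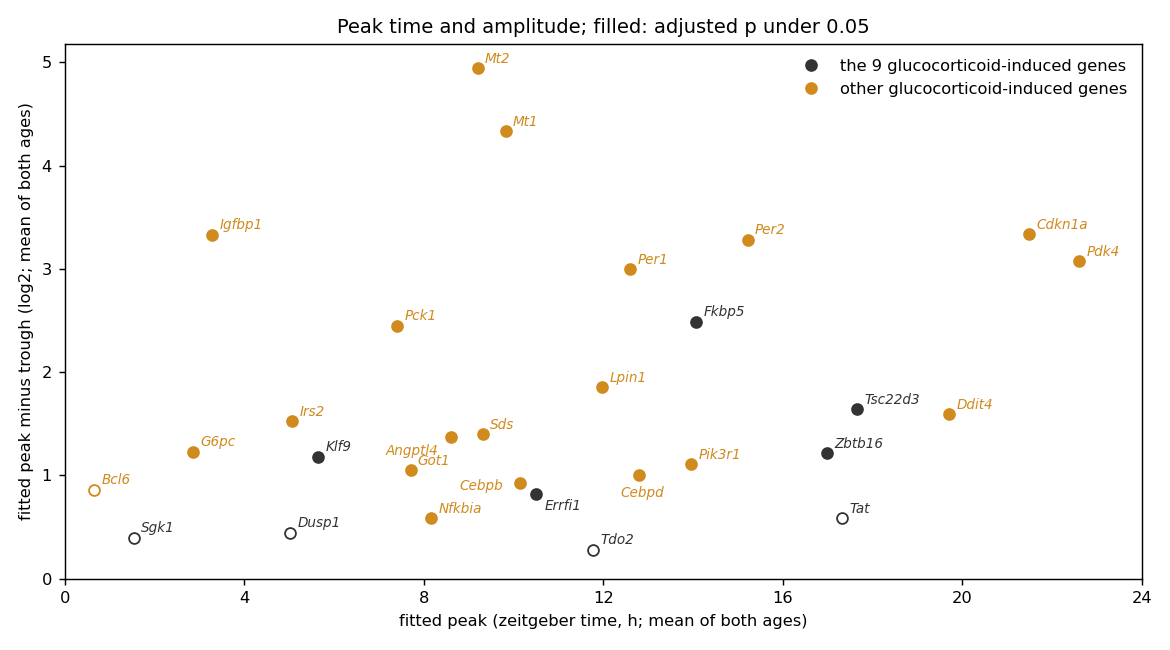
Fitted peak (zeitgeber time, h) against fitted peak minus trough (log2), both as the mean of the 2 ages, for the 9 genes (black) and the 20 other glucocorticoid-induced genes tested (orange), with filled points for an adjusted p under 0.05. The points spread over the day with no single peak time, and Mt2 and Mt1, metallothionein genes named after their values were seen, have the highest amplitudes, 4.94 and 4.34, with old ZT10 means of 1635 and 1631 TPM, while in young liver their highest group means were 5.97 and 6.48 times the lowest.

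Tyrosine and tryptophan breakdown, the pathways that Tat and Tdo2 open, had 0 of 12 genes past the age threshold by limma (1 at an unadjusted p under 0.05, beside 11.6% of all genes) and 4 rhythmic on the mean of both ages (beside 23.9% of all genes), among them Acmsd, Kynu and Fah. Acmsd, which diverts tryptophan breakdown from NAD synthesis, had amplitudes of 1.31 in old liver and 1.92 in young liver with a peak at ZT20.6, and Kynu, the kynureninase of the same pathway, had 0.96 in old and 0.88 in young with a peak at ZT2.81. Of 19 partners of the 9 genes, such as ErbB receptors and Krüppel-like factors, 0 passed for age by limma (1 at an unadjusted p under 0.05) and 7 were rhythmic on the mean of both ages, beside the same 11.6% and 23.9% of all genes. These included Nedd4l, a ubiquitin ligase that Sgk1 restrains, with amplitudes of 1.03 in old and 1.31 in young. Of 11 immediate early genes, 0 passed for age by limma (2 at an unadjusted p under 0.05), 10 had a fitted difference above 0 in old liver and 3 were rhythmic on the mean of both ages. Beside the same 11.6% and 23.9% of all genes, the counts of 2 and 3 immediate early genes are near the background. The 10 of 11 has no such share beside it. The median age difference of these 11 genes was log2 0.48, against -0.01 over all genes tested.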

How the data were processed

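Per-strand single-end libraries with reads of 50 bases were made from oligo-dT-selected RNA of frozen liver, per the labels' protocols, and HISAT2, StringTie and GRCm38 are named in the submitters' processing notes, with versions not given in the sources used here. The deposited TPM sum to 1000000 per library. The deposited FPKM and the deposited coverage served for the alternative scaling and the depth. The files hold no read counts, so no counting interval is given. Rows with the same gene identifier were summed, and TPM were divided by median-of-ratios factors over 13270 genes above 0 in all 24 libraries. Genes averaging 1 TPM or more were fitted as log2(scaled TPM + 0.5) in R 4.3.3 by limma 3.58.1 with trended empirical Bayes, so fold changes of low genes are understated. A model of 12 group means (12 residual degrees of freedom) gave age differences, and a cosinor model of 24 h for each age, with 18 residual degrees of freedom, gave the rhythm tests and peaks. Adjusted p are Benjamini-Hochberg over 12261 genes, with a threshold of 0.05.

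The members, lists and rules were chosen with earlier results of these data known. Named genes were all 9 members, up to 4 genes per pathway list with the smallest p past the threshold for age and for rhythm on the mean of both ages, Nr3c1 and Hsd11b1, and the 3 most correlated genes per member, though some single genes chosen this way are not reported here. Of the list entries 159 matched by file name and 2 by GENCODE M21 symbol. Steps were tested on simulated data. Alternatives covered scaling, pseudocount, filter, single libraries, the replicate number, libraries that stand apart, ZT10 and the shape of the daily profile. Tables and plots were made with matplotlib 3.10.9, numpy 2.4.6, pandas 2.3.3 and Python 3.11.15.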

Additional observations from a re-analysis of the deposited data

How the results depend on the processing

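The calls of Fkbp5 and Tsc22d3 at both ages, and of Klf9 in young liver and on the mean, passed in all 34 alternatives where each was computed, and 0 of the 9 genes passed a test of age, of age at a time or of a rhythm difference in any. The rhythm on the mean passed for 5 of the 9, but for 3 with no filter, 3 with ZT10 left out and 3 to 5 leaving out single libraries, against 2 to 3 in old and 3 to 4 in young. Errfi1 lost it with quantile normalization (adjusted p = 0.0507 by limma), no filter (0.0731), ZT10 left out (0.614), both libraries that stand apart left out (0.0524) and without any 1 of 15 libraries: young ZT2 (both), ZT6 replicate 2, ZT10 (both) and ZT18 (both), old ZT2 (both), ZT6 replicate 2, ZT10 replicate 2, ZT14 replicate 2, ZT18 replicate 1 and ZT22 (both), at 0.0501 to 0.113. Zbtb16 lost it with unscaled TPM (0.062), no filter (0.0563), ZT10 left out (0.0579) and without any 1 of 7 libraries: young ZT6 (both) and ZT14 replicate 2, old ZT6 (both), ZT14 replicate 1 and ZT18 replicate 2, at 0.0542 to 0.0795. Calls were gained by Tdo2 on the mean with unscaled TPM (0.0374), Errfi1 in young without young ZT6 replicate 1 (0.0479) and Klf9 in old with the test of any time (0.0232). Non-passing amplitude differences, old minus young, changed sign with ZT10 left out for Sgk1 (-0.12), Tat (-0.039), Dusp1 (0.17) and Errfi1 (0.16), and without single libraries for Tat (-0.20 to 0.41), Dusp1 (-0.73 to 0.16) and Errfi1 (-0.499 to 0.026). The age difference of Sgk1 ran from -0.032 to 0.17 without single libraries. The cause was not tested.

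Over all genes, 201 passed for age, but 116 with the 5 TPM filter, 117 without ZT10, 353 with the replicate block and 155 to 223 without single libraries. Summed over single times 74 passed, but 113 with no filter, 156 with the replicate block, 8 without ZT10 and 15 to 118 without single libraries. For age by time 2 passed, but 1 with quantile normalization, 1 with a pseudocount of 0.1, 17 with no filter, 0 with the 5 TPM filter and 0 to 36 without single libraries. Rhythm differences numbered 0, but 2 with quantile normalization, 1 with the 5 TPM filter, 4 without the libraries that stand apart, 1 without ZT10 and 0 to 3 without single libraries. Rhythms in old numbered 1098, but 564 without ZT10, 693 by any time and 869 to 1135 without single libraries; in young 1316, but 633, 841 and 900 to 1675; on the mean 2935, but 1727 without ZT10 and 2499 to 3123.

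The labels do not pair libraries by replicate number, so the main model holds no term for it. Same-numbered libraries did share deviations, which correlated over 0.1 in 52 of 66 pairs of groups (median 0.186, range -0.158 to 0.451). The main model leaves that shared offset in its spread, so a gene that did not pass there may pass with the number in the model. With the replicate block the rhythm of Tat on the mean passed (adjusted p = 0.0196 by limma), so 6 of the 9 passed, and it changed no other call of the 9. A coefficient for the number, added after seeing the data, was log2 1.09 (SE 0.18) for Dusp1, 0.76 (SE 0.09) for Tat and 0.39 (SE 0.11) for Errfi1, each higher in replicate 2 and past the threshold, as were 15.5% of all genes, while 14.7% were lower and none of the 9 was. Tdo2 ran the other way, at log2 -0.19 (SE 0.07, adjusted p = 0.0512 by limma), and did not pass. Whether the number marks the collection day is not given in the labels and was not tested.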

Other observations

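Of 8 acute phase genes, 3 were higher in old liver over the day by limma, and none was lower, beside 1.14% and 0.498% of all genes. Lcn2, an iron-binding protein of inflammation, averaged 112 ± 192 TPM in old liver and 5.49 ± 2.59 TPM in young liver (SD, n = 12 each, log2 2.66, adjusted p = 0.00038). Hp, haptoglobin, averaged 3929 ± 1320 TPM in old liver and 2347 ± 360 TPM in young liver (log2 0.68, adjusted p = 0.00669 by limma). Saa3, a serum amyloid, averaged 34.4 ± 30.0 TPM in old liver and 15.7 ± 4.86 TPM in young liver (log2 0.90, adjusted p = 0.0316 by limma). Glucocorticoids are known to act together with inflammatory cytokines on such genes, and their part in the values of the 9 genes was not tested. Of blood cell markers, 3 of 3 tested B and plasma cell genes and 2 of 3 tested neutrophil genes were higher in old liver by limma. Of all genes, 1.14% were. The 1 tested T cell gene and the 4 erythroid genes did not pass, and all 4 erythroid genes had a fitted difference below 0. B and plasma cell sums were 118 to 647 TPM in old liver and 11.7 to 59.0 TPM in young liver. At ZT10, neutrophil sums were 104 and 139 TPM in old liver and 3.50 and 4.21 TPM in young liver, and Kupffer cell sums were 424 and 625 TPM in old liver and 249 and 226 TPM in young liver. Of 6 Kupffer cell genes 1 passed, higher in old, beside the same 1.14% of all genes.

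Fos, an immediate early gene close to Dusp1 in profile, was 0.286 to 109 TPM in old liver and 0.231 to 10.7 TPM in young liver. Old ZT10 replicate 2, old ZT18 replicate 2 and old ZT2 replicate 2 had the highest sums of 12 immediate early genes, 580, 327 and 318 TPM, and Dusp1 was 57.8, 41.3 and 66.3 TPM in those libraries. Young ZT10 replicate 2 had a lower sum, 160 TPM, with Dusp1 at 55.5 TPM.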
